A study of Mus musculus with 24 samples.

Results

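The glucocorticoid receptor gene Nr3c1 and 9 genes known as targets of the receptor (Fkbp5, Sgk1, Tsc22d3, Zbtb16, Sult1a1, Pdk4, Plin4, Arrdc2 and Map3k6) were followed across 3 brain regions of mice with and without injected tumour cells. The 10 genes were taken by symbol from a table of 47643 symbols, and each was found on 1 row. All 10 reached a mean of 1 TPM in each fit and were tested. The mice were males of the strain C57BL/6J (also written C57BL6/J in the labels), 4 months old, and hippocampus, neocortex and cerebellum were sampled. The LLC group was injected with LLC cells, which grew for up to about 3 weeks, and the control group (CON) had a mock injection. No genetic change is named for either group. LLC is commonly short for Lewis lung carcinoma, an expansion not given by the labels, and the title of the series names melanoma. Each of the 6 groups held 4 libraries, numbered LLC 1 to 4 and CON 14 to 17 in every region. The labels call them biological replicates without saying whether the 3 libraries of a number share an animal, so the p-values measure the spread between these libraries.

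Glucocorticoids, mainly corticosterone in mice, are released by the adrenal cortex under stress and illness and in a daily rhythm. They enter the brain and bind the glucocorticoid receptor, which is held in the cytoplasm by Hsp90 and its co-chaperones. The bound receptor moves to the nucleus, where pairs of it bind a palindromic DNA element and raise or lower the transcription of nearby genes. Many brain cells make the receptor. Its targets are used as readouts of hormone exposure, since several of them follow the hormone within hours. The hippocampus also makes much of the mineralocorticoid receptor, encoded by Nr3c2, which binds corticosterone more tightly.

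The promoters shown are those of Sult1a1 and Map3k6, both called higher in neocortex and hippocampus, and of Sgk1, whose promoter held the closest match to the receptor's element. RefSeq promoters (250 bases before to 50 after a start, build GRCm38.p6) were matched for 8 of the 10 genes, with 15 promoters in all. A full palindrome (GNACA, 3 bases of any kind, then TGTNC) was found for 2 of the 8, in 1 of the 6 promoters of Sgk1 and in the promoter of Map3k6. On either strand, 0.475% of all 32851 promoters (156) held it. In the Sgk1 promoter shown it lay 188 to 176 bases before the start and overlapped a stricter form (AGAACA, 3 bases of any kind, then TGTTCT), which only 3 of the 32851 promoters (0.00913%) held. In Map3k6 it lay 181 to 169 bases before the start. The Sult1a1 promoter held no full palindrome and 2 separate single arms of it (AGAACA or TGTTCT, its reverse complement), which 19% of all promoters hold. The promoter of Arrdc2, also called higher in neocortex and hippocampus, held neither a full palindrome nor a single arm and is not shown. A match is a description of letters and not a binding site. Capitals mark the full palindrome in Sgk1 and Map3k6 and the single arms in Sult1a1, with each sequence given 5′ to 3′ on the strand of its gene.
Sgk1, chr10:21993640-21993939, plus strand: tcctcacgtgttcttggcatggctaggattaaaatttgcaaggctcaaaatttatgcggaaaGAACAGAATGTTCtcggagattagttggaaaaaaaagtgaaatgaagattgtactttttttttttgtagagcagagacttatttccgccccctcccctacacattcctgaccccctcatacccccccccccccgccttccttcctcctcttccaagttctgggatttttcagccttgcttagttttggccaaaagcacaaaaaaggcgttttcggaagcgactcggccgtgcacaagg
Map3k6, chr4:133240568-133240867, plus strand: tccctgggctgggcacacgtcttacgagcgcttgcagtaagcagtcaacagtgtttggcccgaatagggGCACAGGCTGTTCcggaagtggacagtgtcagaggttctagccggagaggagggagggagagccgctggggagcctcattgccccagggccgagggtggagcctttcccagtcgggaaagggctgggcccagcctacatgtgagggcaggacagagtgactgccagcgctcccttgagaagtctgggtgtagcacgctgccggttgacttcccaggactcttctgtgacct
Sult1a1, chr7:126676369-126676668, minus strand: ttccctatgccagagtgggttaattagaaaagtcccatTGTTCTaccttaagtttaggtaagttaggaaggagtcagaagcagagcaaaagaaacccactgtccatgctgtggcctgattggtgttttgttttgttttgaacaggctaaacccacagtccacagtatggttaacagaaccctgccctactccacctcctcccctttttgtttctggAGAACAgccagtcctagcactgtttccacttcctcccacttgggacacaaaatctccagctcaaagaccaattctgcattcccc

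In 3 of the 4 tumour-bearing libraries of each region the target genes lay far above the controls, and in the library numbered LLC 4 most of them did not. Of 27 target values (9 genes in 3 regions), 23 lay above all 4 controls of the region in LLC 1, 25 in LLC 2, 21 in LLC 3 and 8 in LLC 4. In LLC 4 the other 19 lay within the range of the controls. The receptor gene itself was not raised in any region. These positions are a description, given first because they bear on each count below.

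By region, 8, 8, 8 and 2 of the 9 targets lay above all controls in neocortex LLC 1 to 4, where 37.6%, 33.9%, 37.0% and 28.5% of the 14485 tested genes did. In cerebellum the counts were 8, 8, 7 and 3 of 9, beside 25.9%, 27.7%, 28.5% and 31.0% of 14624 genes. In hippocampus they were 7, 9, 6 and 3 of 9, beside 25.8%, 37.8%, 29.2% and 32.6% of 14650 genes. The share of all genes above the controls was thus similar in LLC 4 and in the other LLC libraries, while the count of targets was not. The mean log2 difference of the 9 targets from the control mean, on log2(TPM + 1), was 1.30, 1.06, 1.17 and 0.015 in neocortex LLC 1 to 4. It was 1.52, 1.04, 1.15 and -0.091 in cerebellum and 0.90, 1.03, 0.96 and 0.13 in hippocampus.

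**Figure D1:**
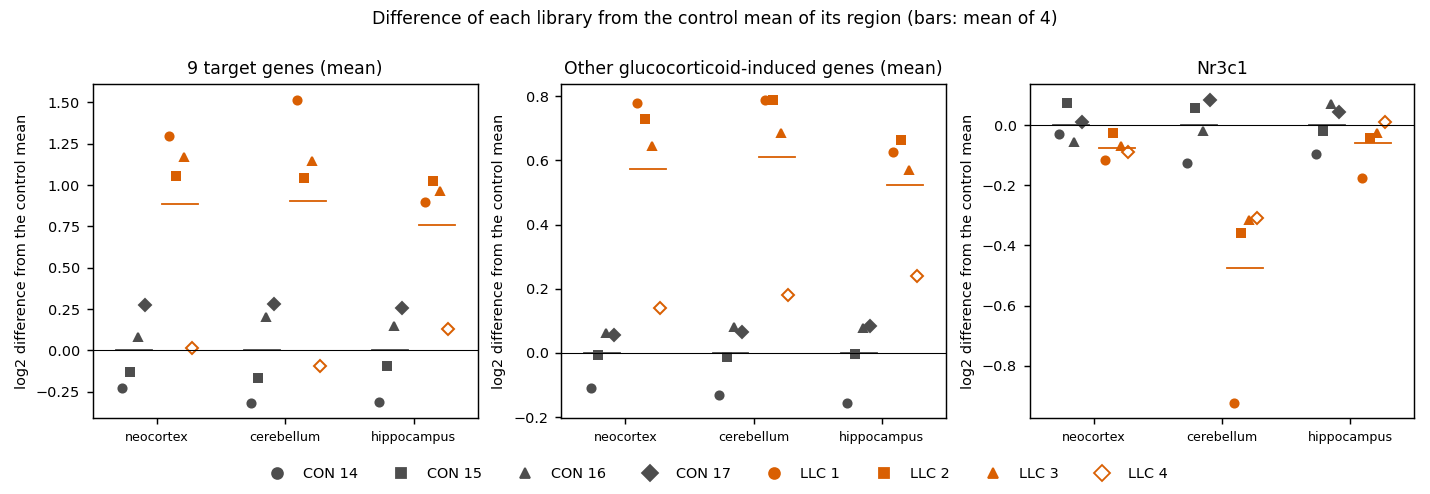
Mean log2 difference, on log2(TPM + 1), of each library from the control mean of its region for the 9 targets, for 25 other glucocorticoid-induced genes and for Nr3c1 (y axes with their own scales; grey CON, orange LLC, open diamonds LLC 4, bars the mean of 4). For the 9 targets LLC 1 to 3 lie between 0.90 and 1.52 in all regions, and LLC 4 between -0.091 and 0.13.

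Other properties of the libraries moved too. Gabra6, a receptor subunit of cerebellar granule cells, ranged from 455 to 986 TPM in the 8 cerebellar libraries and from 0 to 0.403 TPM elsewhere, and Prox1, a marker of dentate granule cells, had its lowest hippocampal value at 30.9 TPM (highest 52.7), a cerebellar span of 18.4 to 35.3 and a neocortical one of 6.91 to 8.77, so its hippocampal and cerebellar ranges overlapped. The summed TPM of 7 red blood cell genes was 3565, 4250 and 2622 in LLC 4 of neocortex, cerebellum and hippocampus, 7106 to 15582 in LLC 1 to 3 and 729 to 1624 in controls. Summed neutrophil genes (8) were highest in LLC 4 (199.9, 149 and 115 TPM), against 24.3 to 164 in LLC 1 to 3 and 1.17 to 15.5 in controls. Summed endothelial genes (8) were also higher with tumour, at 251 to 339 against 179 to 217 TPM in neocortex and 207 to 245 against 141 to 170 TPM in hippocampus, with cerebellum overlapping (242 to 350 against 209 to 246 TPM). LLC 4 had the lowest endothelial sum of the LLC libraries in every region. Summed mural genes (8) were higher in all LLC libraries than in controls in neocortex (172 to 205 against 145 to 159.6 TPM) and hippocampus (152 to 177 against 126 to 145 TPM) and overlapped in cerebellum.

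Several sums separated LLC 1 to 3 from LLC 4, as the targets did. Summed microglial genes (7) lay below all controls in LLC 1 to 3 and above them in LLC 4, at 348 to 401, 431 to 462 and 488 TPM for LLC 1 to 3, controls and LLC 4 in neocortex and 305 to 372, 399.6 to 422 and 473 TPM in hippocampus. They overlapped in cerebellum (182 to 237 against 204 to 226 TPM). Summed meningeal genes (8) lay above all controls in LLC 1 to 3 of neocortex (1363 to 2185 against 1086 to 1236 TPM), with LLC 4 within the controls, and of cerebellum (2000 to 2855 against 1538 to 1794 TPM), with LLC 4 below them. Neuronal sums (8) lay below all controls in every hippocampal LLC library (3104 to 3336 against 3374 to 3580 TPM) and in neocortex LLC 1 to 3 (3549.8 to 3952 against 3994 to 4170 TPM). Oligodendrocyte sums (8) lay below all controls in every neocortical LLC library (2322 to 2535 against 2598 to 2790 TPM). Astrocyte and choroid plexus sums overlapped between the groups in each region. No gene found of these lists was at 0 in all libraries of a group, and the part of these sums in the results on the targets was not tested. In such bulk tissue, fewer cells of a type and less RNA per cell cannot be told apart.

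With all libraries, 3 of the 10 genes rose in neocortex (Sult1a1, Arrdc2 and Map3k6), 1 in cerebellum (Map3k6) and 3 in hippocampus (Sult1a1, Arrdc2 and Map3k6), and none fell by limma with Benjamini-Hochberg adjustment over all genes and a threshold of 0.05. Among all tested genes, 5.59%, 1.23% and 2.58% were called higher in the 3 regions and 2.95%, 1.27% and 1.03% lower. At an unadjusted p under 0.05, 7, 6 and 6 of the 10 genes were higher and 0, 1 and 0 lower, the lower one being Nr3c1 in cerebellum, beside 17.7%, 9.63% and 13.5% of all genes higher and 12.1%, 14.7% and 8.70% lower. The median log2 fold change of the 9 targets was 0.89, 1.07 and 0.92, beside 0.015, -0.040 and 0.0079 over all genes.

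The number of called genes turned on single libraries, among all genes as among these 10. Without LLC 4, 9 of the 10 genes were called higher in neocortex, 6 in cerebellum and 6 in hippocampus, where 15.2%, 4.24% and 6.48% of all genes were. The 9 in neocortex were all 9 targets, and the 6 in the other regions were Fkbp5, Sgk1, Sult1a1, Plin4, Arrdc2 and Map3k6 each time. LLC 4 is followed apart here and below because most of these same target values lay within the controls there. Larger fold changes, smaller standard errors and smaller p-values of the targets without it follow in part from that choice. In neocortex, leaving out LLC 1, LLC 2 or CON 15 gave 0 calls, and leaving out LLC 3, CON 14, CON 16 or CON 17 gave 1. The share of all genes called in either direction fell there from 8.54% to between 1.29% and 3.9%. In hippocampus each of these 7 omissions gave 0 calls, beside 0.389% to 1.04% of all genes (3.61% with all libraries). In cerebellum 6 of them did, beside 0.041% to 0.328% of all genes (2.5% with all libraries). Cerebellum without LLC 1 gave 2 higher (Arrdc2 and Map3k6) and 1 lower (Nr3c1), beside 4.45% and 4.39% of all genes.

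With 1 value per replicate number, averaged over the 3 regions, Sult1a1, Arrdc2 and Map3k6 were called higher and none lower, beside 7.66% and 5.45% of all genes. Their limma adjusted p-values were 0.0237, 0.0196 and 0.0167. Without LLC 4, 6 targets were called higher (13.2% of all genes), and Nr3c1 was called lower (15.9% of all genes). The count of called genes was 0 without LLC 2, CON 15 or CON 16, beside 4.5%, 2.55% and 3.12% of all genes called in either direction. It was 1 without LLC 3, beside 6.32% of all genes, where all libraries gave 13.1%. The count thus rested on single libraries, and so did the share of all genes. Nr3c1, at -0.20 ± 0.064 with all libraries (limma adjusted p = 0.06004), was also called lower with median-ratio scaling (-0.20, limma adjusted p = 0.0386).

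**Figure D2:**
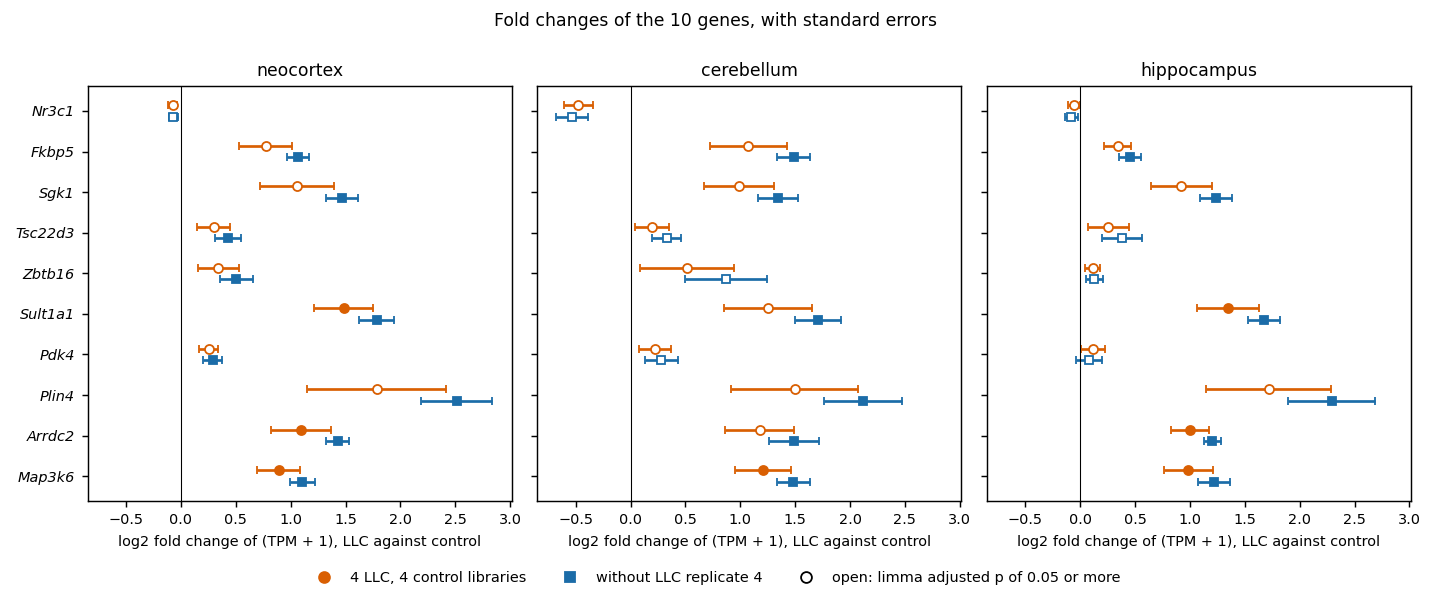
Log2 fold changes on log2(TPM + 1), LLC against control, of the 10 genes in 3 regions, with standard errors as bars. Orange circles use 4 LLC and 4 control libraries, blue squares leave out LLC 4, and filled symbols passed the limma threshold of 0.05. Every target shifts to the right without LLC 4 except Pdk4 in hippocampus (0.12 to 0.085). LLC 4 was picked because most of these same target values lay within the controls there.

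Nr3c1, on chromosome 18 (mm10, 39410545 to 39519421, minus strand), encodes the receptor. In cerebellum it measured 31.6, 47.3, 48.8 and 49.1 TPM in LLC 1 to 4 and 55.8, 63.5, 60.2 and 64.7 TPM in CON 14 to 17. All 4 LLC libraries lay below all 4 controls, as 10.3% of all tested genes did there, and LLC 1 was far the lowest. The fold change was -0.48 ± 0.13 (SE) on log2(TPM + 1), with a limma adjusted p of 0.0794, so the gene did not pass. Without LLC 1 it did, at a smaller change of -0.33 ± 0.060 (limma adjusted p = 0.0167), and without LLC 4 it did not, at -0.53 ± 0.14 (limma adjusted p = 0.0502).

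Cerebellar LLC 1 also stood apart in its make-up. The summed TPM of 8 oligodendrocyte genes was 4783 there, 2318 to 3115 in the other cerebellar LLC libraries and 2876 to 3556 in controls. The part of this in the low receptor value was not tested. In LLC 2 and 3, where Nr3c1 was also below all controls, that sum lay below all controls, and in LLC 4 it lay within them.

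In neocortex Nr3c1 measured 51.6, 54.9, 53.2 and 52.5 TPM in the LLC libraries and 54.8, 58.9, 53.7 and 56.4 TPM in controls. In hippocampus the values were 33.9, 37.3, 37.8 and 38.7 TPM and 35.9, 37.96, 40.5 and 39.7 TPM. The groups overlapped in both regions, where 6.18% and 4.81% of all genes had every LLC library below every control. The 95% intervals of the log2 fold change, -0.16 to 0.012 and -0.18 to 0.068, both included 0. The limma adjusted p was 0.228 in neocortex and 0.589 in hippocampus.

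Fkbp5 (chromosome 17, 28399094 to 28517527, minus strand) encodes FKBP51, a co-chaperone that lowers the receptor's affinity for hormone and is itself induced by the receptor. In neocortex it measured 37.6, 32.2, 39.3 and 15.4 TPM in LLC 1 to 4 and 14.1, 15.9, 18.1 and 19.5 TPM in CON 14 to 17. In cerebellum it measured 19.8, 13.7, 19.4 and 4.87 TPM and 4.86, 4.81, 6.66 and 6.15 TPM. In hippocampus it measured 46.8, 45.2, 47.3 and 33.5 TPM and 27.7, 32.1, 38.6 and 37.1 TPM. LLC 1 to 3 lay above every control in each region and LLC 4 lay among the controls, so the groups overlapped. The fold changes of 0.77 ± 0.25, 1.07 ± 0.35 and 0.34 ± 0.13 did not pass (limma adjusted p = 0.0740, 0.1104 and 0.156). Without LLC 4 they were 1.07 ± 0.10, 1.48 ± 0.15 and 0.45 ± 0.10 and passed (limma adjusted p = 1.01e-04, 0.00176 and 0.0231).

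Sgk1 (chromosome 10, 21882184 to 21999903, plus strand), whose promoter is shown above, encodes a kinase that regulates ion channels and transporters and was named after its induction by serum and glucocorticoids. It measured 131, 102, 94.8 and 34.1 TPM in neocortex LLC 1 to 4 and 30.7, 36.8, 39.7 and 49.03 TPM in the controls. The cerebellar values were 158, 111, 102 and 44.7 TPM with tumour and 36.6, 47.6, 49.4 and 58.00 TPM in controls. In hippocampus they were 90.8, 112, 91.2 and 40.3 TPM and 34.2, 35.2, 43.4 and 53.01 TPM. Again LLC 1 to 3 were above every control and LLC 4 was within the control range in all regions. The fold changes were 1.06 ± 0.34, 0.99 ± 0.32 and 0.92 ± 0.28, with limma adjusted p-values of 0.0766, 0.109 and 0.0922. Without LLC 4 they were 1.47 ± 0.14, 1.34 ± 0.18 and 1.24 ± 0.14, with limma adjusted p-values of 1.16e-04, 0.00527 and 0.00150.

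Map3k6 (chromosome 4, 133240818 to 133252929, plus strand), a kinase gene of the stress-activated MAP kinase cascade, passed in all 3 regions, at low levels. It measured 5.69, 4.76, 5.77 and 2.51 TPM in neocortex LLC 1 to 4 and 1.65, 1.66, 2.09 and 2.57 TPM in the controls. In cerebellum it measured 7.04, 5.79, 4.98 and 2.21 TPM and 1.11, 1.21, 1.71 and 1.902 TPM. In hippocampus it measured 4.43, 4.66, 5.22 and 1.998 TPM and 0.996, 1.59, 1.39 and 2.03 TPM. All LLC libraries lay above all controls in cerebellum only, and in the other regions LLC 4 lay just under the highest control. Its log2 fold changes were 0.89 ± 0.20, 1.21 ± 0.26 and 0.98 ± 0.22 (limma adjusted p = 0.0279, 0.0458 and 0.0444). At such levels the added 1 TPM makes these values smaller than the ratio of the TPM means.

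Sult1a1 (chromosome 7, 126672865 to 126676432, minus strand) encodes a sulfotransferase of phenols and catechols. It measured 48.5, 41.4, 35.6 and 17.6 TPM in neocortex LLC 1 to 4 and 8.75, 10.1, 12.6 and 14.9 TPM in the controls. In cerebellum the values were 54.1, 38.01, 38.3 and 11.4 TPM and 8.92, 10.7, 15.9 and 15.5 TPM. In hippocampus they were 43.3, 34.00, 33.9 and 14.2 TPM and 9.63, 9.07, 11.2 and 14.1 TPM. The groups did not overlap in neocortex and hippocampus, in the latter by a margin of LLC 4 over CON 17 far smaller than the spread between controls, and they overlapped in cerebellum. The gene rose by 1.48 ± 0.27 in neocortex and 1.35 ± 0.29 in hippocampus (limma adjusted p = 0.0160 and 0.0360). The cerebellar value of 1.25 ± 0.40 did not pass (limma adjusted p = 0.106) and passed without LLC 4 at 1.71 ± 0.21 (limma adjusted p = 0.00357).

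Arrdc2 (chromosome 8, 70835129 to 70839720, minus strand) belongs to the alpha-arrestins, adaptors in the trafficking of membrane proteins. It measured 34.4, 26.1, 27.1 and 10.8 TPM in neocortex LLC 1 to 4 and 11.5, 9.55, 8.92 and 10.7 TPM in the controls. In cerebellum the values were 67.3, 34.6, 31.1 and 17.1 TPM and 14.5, 13.6, 14.5 and 14.3 TPM. In hippocampus they were 28.97, 31.9, 29.5 and 16.8 TPM and 11.1, 13.6, 12.1 and 13.3 TPM. Here LLC 4 lay above every control in cerebellum and hippocampus and within the controls in neocortex. The fold changes were 1.09 ± 0.28, 1.18 ± 0.31 and 1.00 ± 0.17, and the limma adjusted p-values 0.0407, 0.0738 and 0.0226, so the cerebellar value alone did not pass. It passed without LLC 1 (limma adjusted p = 0.0293) and without LLC 4 (limma adjusted p = 0.00881).

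The groups did not overlap, with all LLC libraries higher, for 1 of the 10 genes in neocortex (Sult1a1), 2 in cerebellum (Arrdc2 and Map3k6) and 2 in hippocampus (Sult1a1 and Arrdc2). Over all tested genes this held for 10.9%, 6.42% and 8.95%.

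Plin4 (chromosome 17, 56100591 to 56109803, minus strand) encodes a perilipin, a coat protein of lipid droplets. It had the largest fold changes of the 10 genes and the widest spread. It measured 19.3, 13.1, 23.1 and 1.53 TPM in neocortex LLC 1 to 4 and 1.12, 1.33, 3.44 and 4.66 TPM in CON 14 to 17. In cerebellum the values were 26.5, 12.5, 20.7 and 2.55 TPM and 1.98, 2.37, 5.59 and 5.86 TPM. In hippocampus they were 12.6, 18.5, 24.7 and 2.86 TPM and 1.101, 1.72, 4.91 and 5.62 TPM. LLC 1 to 3 lay above every control, LLC 4 lay within them, and CON 16 and 17 were above CON 14 and 15 in each region. The fold changes of 1.78 ± 0.63, 1.49 ± 0.58 and 1.72 ± 0.57 did not pass (limma adjusted p = 0.0966, 0.156 and 0.118). Without LLC 4 they were 2.51 ± 0.33, 2.12 ± 0.36 and 2.29 ± 0.40, and passed in all 3 regions (limma adjusted p = 6.04e-04, 0.0128 and 0.00880).

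Tsc22d3 (chromosome X, 140539528 to 140600659, minus strand) encodes the leucine zipper protein GILZ, a mediator of the anti-inflammatory action of glucocorticoids. It measured 59.4, 54.2, 47.7 and 36.97 TPM in neocortex LLC 1 to 4 and 31.6, 37.4, 44.4 and 46.3 TPM in the controls. In cerebellum the LLC libraries measured 102, 91.1, 75.6 and 61.2 TPM and the controls 58.6, 68.4, 78.4 and 78.96 TPM. The hippocampal values were 48.2, 48.3, 43.2 and 32.9 TPM and 23.7, 35.9, 42.4 and 44.1 TPM. LLC 4 lay between CON 14 and CON 15 in every region. The fold changes of 0.30 ± 0.15, 0.20 ± 0.16 and 0.26 ± 0.19 did not pass (limma adjusted p = 0.208, 0.452 and 0.455). Without LLC 4 only the neocortical one passed, at 0.43 ± 0.12 (limma adjusted p = 0.0270).

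Zbtb16 (chromosome 9, 48654297 to 48836222, minus strand) encodes the zinc finger transcription factor PLZF. It measured 23.96, 23.1, 32.2 and 16.3 TPM in neocortex LLC 1 to 4 and 15.5, 16.1, 17.9 and 24.1 TPM in the controls. In cerebellum the values were 9.81, 10.7, 17.7 and 3.94 TPM and 3.34, 4.35, 8.31 and 11.97 TPM. In hippocampus they were 41.7, 46.2, 42.9 and 41.9 TPM and 35.2, 38.3, 42.8 and 43.5 TPM. The groups overlapped everywhere, and in cerebellum the 4 controls alone spanned 3.34 to 11.97 TPM. The fold changes of 0.34 ± 0.18, 0.51 ± 0.43 and 0.11 ± 0.071 did not pass (limma adjusted p = 0.243, 0.478 and 0.3799). Without LLC 4 the neocortical value passed, at 0.50 ± 0.15 (limma adjusted p = 0.0337).

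Pdk4 (chromosome 6, 5483351 to 5496309, minus strand) encodes a kinase that shuts off pyruvate dehydrogenase in fasting. Neocortical values were 15.4, 14.2, 11.8 and 12.3 TPM with tumour and 11.2, 12.2, 10.9 and 10.03 TPM in controls. In cerebellum LLC 1 measured 17.01 TPM and the other LLC libraries 10.02 to 11.5 TPM, against 9.65 to 10.4 TPM in controls. The hippocampal ranges were 8.98 to 13.2 TPM with tumour and 9.16 to 10.8 TPM in controls, which overlapped. The fold changes were 0.25 ± 0.086, 0.22 ± 0.14 and 0.12 ± 0.11, none of which passed (limma adjusted p = 0.0880, 0.361 and 0.576). Without LLC 4 the neocortical value passed, at 0.29 ± 0.089 (limma adjusted p = 0.0393).

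**Figure D3:**
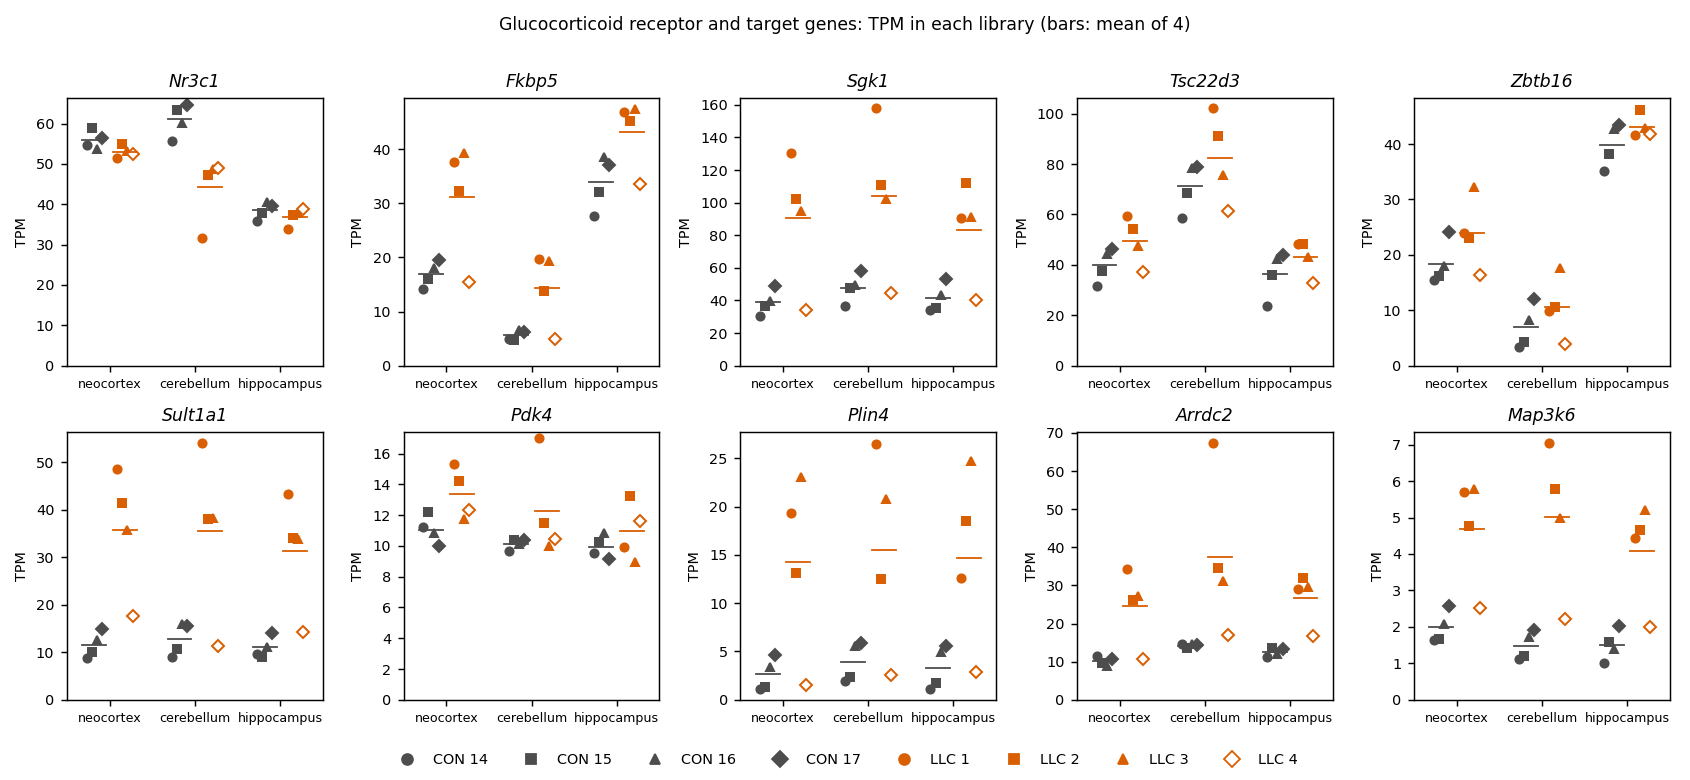
TPM (linear y axes from 0) of the 10 genes in each of the 24 libraries by region; grey symbols are controls, orange symbols LLC libraries, open diamonds LLC 4, and bars the mean of 4. Sult1a1 in neocortex LLC 1 to 3 lies between 35.6 and 48.5 TPM, with LLC 4 at 17.6 TPM and the controls at 8.75 to 14.9 TPM.

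The controls were not uniform for these genes either. Of the 27 target values per control library, the lowest of the 4 controls was CON 14 in 21 cases and the highest was CON 17 in 19. In 20 of the 27, both CON 16 and CON 17 lay above both CON 14 and CON 15. These counts were not made over all genes, so the order is not shown to be particular to the targets. The 27 values are not independent either, since most targets varied together and the regions may share animals. For Plin4 in neocortex this meant 1.12 and 1.33 TPM against 3.44 and 4.66 TPM. The labels give no time of day, handling or batch for the libraries, and the part of such factors was not tested.

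The effect of the tumour on the 10 genes was then compared between regions. By limma in 1 fit of all 24 libraries, 0 of the 10 genes passed for cerebellum minus neocortex, hippocampus minus neocortex and hippocampus minus cerebellum. Of all 14873 genes, 0.612%, 0% and 0.128% did. At an unadjusted p under 0.05 the counts were 1, 0 and 1, both times Nr3c1, beside 12.7%, 1.99% and 12.4% of all genes. Its effect in cerebellum minus that in neocortex was -0.40 ± 0.13 (limma adjusted p = 0.181), and in hippocampus minus cerebellum 0.42 ± 0.13 (limma adjusted p = 0.2102). Fkbp5 had the smallest log2 fold change in hippocampus, where its control level was highest. The difference from cerebellum was -0.73 ± 0.42, with a 95% interval of -1.60 to 0.13 (limma adjusted p = 0.483). Without LLC 4 it was -1.03 ± 0.19 and the only one of the 10 genes to pass (limma adjusted p = 0.0101), beside 1.72% of all genes. LLC 4 was picked because most of these same target values lay within the controls there. The smaller standard error follows in part from that choice, so this pass is no separate support for a difference between regions. For Sult1a1 and Arrdc2, which passed in some regions only, the intervals of the difference between cerebellum and neocortex were wide, -1.32 to 0.86 and -0.79 to 0.96. This fit does not use the replicate number. With that number as a block, these differences were -0.23 ± 0.14 and 0.086 ± 0.20 (limma adjusted p = 0.423 and 0.868). The Fkbp5 difference of hippocampus minus cerebellum, with all libraries, was then -0.73 ± 0.20 (limma adjusted p = 0.115).

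Control libraries alone give the resting levels of the 10 genes in the 3 regions. Nr3c1 stood at 61.05 ± 3.97 TPM in cerebellum, 55.97 ± 2.26 TPM in neocortex and 38.5 ± 2.004 TPM in hippocampus (SD, n = 4 each). Fkbp5 and Zbtb16 had the reverse order. Fkbp5 stood at 33.9 ± 4.98 TPM in hippocampus, 16.9 ± 2.36 TPM in neocortex and 5.62 ± 0.929 TPM in cerebellum. Zbtb16 stood at 39.9 ± 3.93, 18.4 ± 3.94 and 6.99 ± 3.95 TPM in the same order. For both, the 4 hippocampal controls lay above all neocortical controls and these above all cerebellar ones. Tsc22d3 was highest in cerebellum (71.1 ± 9.64 TPM), and its levels in neocortex (39.9 ± 6.73 TPM) and hippocampus (36.5 ± 9.26 TPM) differed by less than the spread between libraries.

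By limma on the control libraries, 3 of the 10 genes were higher and 2 lower in cerebellum than in neocortex, beside 60.0% and 24.6% of all genes. Hippocampus against neocortex gave 3 higher and 1 lower, beside 40.3% and 21.2%, and hippocampus against cerebellum 2 higher and 3 lower, beside 27.4% and 55.6%. The 3 contrasts share libraries. Most genes differed between regions, so these counts are not particular to the 10 genes. The median of all genes shifted by 0.30, 0.080 and -0.23 in the 3 contrasts, and directions depend on that scaling. Fkbp5 differed by 2.40 ± 0.12 between hippocampus and cerebellum (limma adjusted p = 2.24e-10) and Zbtb16 by 2.49 ± 0.27 (limma adjusted p = 7.53e-07), far beyond the shift. Nr3c1 in cerebellum against neocortex was 0.12 (limma adjusted p = 0.0399), under the shift, and turned to -0.19 with median-ratio scaling (limma adjusted p = 0.00245). Its lower level in hippocampus kept its sign against both regions with that scaling, at -0.63 and -0.43. Arrdc2 in hippocampus against cerebellum went from -0.17 to 0.034. With that scaling, cerebellum against neocortex gave 1 higher (Tsc22d3) and 5 lower, beside 79.9% of all genes called in either direction. Arrdc2 was then no longer called in that contrast.

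Sgk1, Sult1a1, Plin4, Pdk4 and Map3k6 were not called between control regions in this fit, which does not use the replicate number. In neocortex Sgk1 measured 30.7 to 49.0 TPM, in hippocampus 34.2 to 53.0 TPM, and in cerebellum 36.6 to 58.0 TPM. Sult1a1 ranged from 8.75 to 15.9 TPM over all 12 control libraries. The ranges of Sgk1 overlapped between all regions. For cerebellum against neocortex the title numbers paired the control libraries. With that number as a block, 5 of the 10 genes were called higher and 3 lower, beside 60.9% and 25.0% of all genes. The blocked fit held all 12 control libraries. The hippocampal ones, not taken as paired, were thus blocked by number too, and the standard errors and p-values rest on them as well. Sgk1 (0.29 ± 0.049, limma adjusted p = 2.10e-04) and Plin4 (0.47 ± 0.087, limma adjusted p = 3.68e-04) were then called higher in cerebellum and Map3k6 lower (-0.27 ± 0.087, limma adjusted p = 0.0127). The value of Sgk1 lay under the median shift of all genes. With median-ratio scaling Pdk4 passed in all 3 contrasts (-0.41, -0.23 and 0.17; limma adjusted p = 3.63e-05, 0.00594 and 0.0204), and so did Map3k6 in cerebellum against neocortex (-0.47, limma adjusted p = 0.00798).

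Genes that set how much hormone reaches the receptor, and how it is held ready, were followed as a list of 16 that includes Nr3c1. Of the 15 tested, 2 were higher and 3 lower in neocortex, 0 and 0 in cerebellum, and 2 higher and 2 lower in hippocampus by limma, beside 5.59% and 2.95%, 1.23% and 1.27%, and 2.58% and 1.03% of all genes. In cerebellum 0 were higher and 9 lower at an unadjusted p under 0.05, beside 9.63% and 14.7% of all genes. The median log2 fold change of the 15 was -0.041, -0.19 and 0.015. Abcb1a, which encodes the P-glycoprotein pump of the blood-brain barrier, rose in neocortex (0.37 ± 0.055, limma adjusted p = 0.00789) and hippocampus (0.39 ± 0.065, limma adjusted p = 0.0221). The endothelial sums given above were also higher in these regions. In cerebellum Abcb1a had a mean of 30.5 TPM both with tumour and in controls, while the endothelial sums had means of 291 and 225 TPM. The part of these sums was not tested. Ncoa1, a receptor coactivator, rose by 0.20 in neocortex and 0.21 in hippocampus (limma adjusted p = 0.0456 and 0.0311).

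The genes called lower encode chaperones or co-chaperones. Stip1, which links Hsp70 and Hsp90, had all LLC libraries below all controls in every region, and fell in neocortex and hippocampus, with log2 fold changes of -0.18 ± 0.045 and -0.24 ± 0.045 (limma adjusted p = 0.0414 and 0.0280). Fkbp4, the co-chaperone FKBP52 that favours hormone binding and competes with FKBP51, measured 102, 93.3, 102 and 107 TPM in neocortex LLC 1 to 4 and 111, 119.7, 111 and 115 TPM in controls. It fell there (-0.17 ± 0.046, limma adjusted p = 0.0458) and did not pass in cerebellum (-0.19 ± 0.075) or hippocampus (-0.17 ± 0.076). Ptges3, the co-chaperone p23, fell in neocortex (-0.22, limma adjusted p = 0.0471) and Hsp90aa1 in hippocampus (-0.18, limma adjusted p = 0.0436). Without LLC 4, 4 higher and 5 lower were called in neocortex, beside 15.2% and 11.3% of all genes. Leaving out any one of the other 7 neocortical libraries gave 1 higher and 0 lower. In hippocampus any one of these 7 omissions gave 0 or 1 higher and 0 lower, and leaving out LLC 4 gave 2 higher and 3 lower. In cerebellum 4 lower were called without LLC 1 and 2 lower without LLC 4. Without LLC 4, 10.7% of all genes in cerebellum and 11.4% in hippocampus were called in either direction. The shares of all genes in the other fits without 1 library, given above, moved as well.

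Nr3c2 and Hsd11b1 did not pass in any region. Nr3c2 had control means of 95.1 TPM in hippocampus, 22.1 TPM in neocortex and 20.9 TPM in cerebellum. In hippocampus its TPM was above that of Nr3c1 in every library, and in the other regions below it in every library. With tumour the means were 95.4, 23.3 and 21.1 TPM. Hsd11b1, the enzyme that regenerates active corticosterone inside cells, had control means of 72.4 TPM in cerebellum, 34.8 TPM in hippocampus and 16.9 TPM in neocortex. In cerebellum it measured 54.7, 59.8, 69.3 and 66.3 TPM with tumour and 71.3, 73.7, 73.3 and 71.5 TPM in controls. These groups did not overlap, and the fold change of -0.22 ± 0.077 did not pass (limma adjusted p = 0.131).

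**Figure D4:**
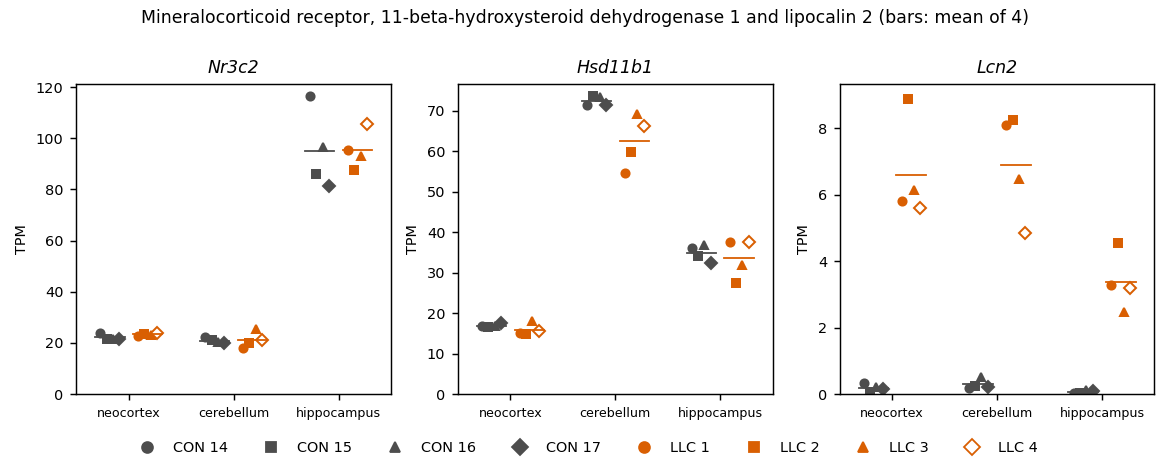
TPM (linear y axes from 0) of Nr3c2, Hsd11b1 and Lcn2 in each of the 24 libraries; grey controls, orange LLC libraries, open diamonds LLC 4, bars the mean of 4. Nr3c2 lies between 81.4 and 116 TPM in hippocampus and under 26 TPM elsewhere, and Lcn2 lies at 2.46 TPM or more in every LLC library and under 0.52 TPM in every control.

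A wider list of 25 genes known to be induced by glucocorticoids, none of them among the 10, was read beside them. In neocortex 11 were called higher, in cerebellum 4 and in hippocampus 9, and 0 lower in each by limma, beside the shares of all genes given above. At an unadjusted p under 0.05, 19, 18 and 18 were higher and 0, 1 and 0 lower. Of all genes, 17.7%, 9.63% and 13.5% were higher at that cut-off and 12.1%, 14.7% and 8.70% lower. The median log2 fold change was 0.51, 0.48 and 0.37. Fam107a, an actin-binding protein gene induced by stress, rose by 1.01, 0.69 and 0.89 (limma adjusted p = 0.00692, 0.0419 and 0.0215). Gjb6, an astrocyte connexin, rose in neocortex (0.71, limma adjusted p = 0.0189), and Txnip, which binds thioredoxin, in hippocampus (0.87, limma adjusted p = 0.0267). Angptl4, an inhibitor of lipoprotein lipase, rose in neocortex (0.83, limma adjusted p = 0.0117) and Rhob, a small GTPase gene, in hippocampus (0.35, limma adjusted p = 0.0171). Without LLC 4 the counts were 21, 16 and 17 of 25. With any one of the other 7 libraries left out they were 3 to 5 in neocortex, 1 to 9 in cerebellum and 2 to 5 in hippocampus. In these fits the share of all genes called moved too, as given above.

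Over the 75 values of this list (25 genes in 3 regions), 64, 67, 65 and 32 lay above all controls in LLC 1 to 4. By region, LLC 1 to 3 had 20 to 23 of the 25 there, beside 25.8% to 37.8% of all genes. LLC 4 had 9, 12 and 11 of 25 in neocortex, cerebellum and hippocampus, beside 28.5%, 31.0% and 32.6% of all genes. Lcn2 and Cebpd, both known to be induced by inflammatory signals too, were above all controls in LLC 4 in each region, and Nfkbia, which encodes an inhibitor of NF-kappa-B and is also so induced, was within the controls in LLC 4 in each region. Fam107a, Txnip, Mt1, Rhob and Gpd1 of the same list were also above all controls in LLC 4 in each region, some by small margins. Lcn2, a siderophore-binding protein of the acute-phase response, measured 5.805, 8.896, 6.14 and 5.59 TPM in neocortex LLC 1 to 4 and 0.322, 0.0727, 0.202 and 0.146 TPM in controls. It rose by 2.67 ± 0.13, 2.60 ± 0.16 and 2.02 ± 0.14 (limma adjusted p = 1.16e-05, 1.71e-04 and 9.93e-04). Cebpd, a transcription factor of the same response, measured 14.5, 16.1, 9.55 and 6.38 TPM with tumour and 3.36, 4.04, 5.18 and 3.74 TPM in controls, all LLC libraries above all controls in each region. It rose by 1.25, 1.25 and 0.75 (limma adjusted p = 0.0178, 0.0454 and 0.00760). Cdkn1a, a cell-cycle inhibitor, rose in cerebellum (1.36, limma adjusted p = 0.0377), and Mt1, a metallothionein gene, in neocortex and hippocampus (0.53 and 0.46, limma adjusted p = 0.0243 and 0.0249).

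Of 12 genes known to be repressed by glucocorticoids, 6 were too low to be tested (Il1b, Il6, Tnf, Ccl2, Cxcl1 and Nos2). Among the other 6, 2 were higher in neocortex and 1 each in cerebellum and hippocampus, and 0 lower by limma, beside 5.59%, 1.23% and 2.58% of all genes higher. Leaving out 1 library gave 1 or 2 higher in neocortex and 1 in hippocampus. In cerebellum it gave 3 of 5 without LLC 1, 2 without LLC 4 and 0 without any one of the other 6, beside the shares of all genes given above. At an unadjusted p under 0.05, 2, 3 and 2 were higher and 1, 0 and 2 lower. Of all genes, 17.7%, 9.63% and 13.5% were higher at that cut-off and 12.1%, 14.7% and 8.70% lower. Icam1, a leukocyte adhesion molecule, measured 10.2, 9.61, 8.54 and 5.15 TPM in neocortex LLC 1 to 4 and 2.56, 3.18, 2.64 and 2.69 TPM in controls, and all LLC libraries lay above all controls in each region. It rose by 1.28 ± 0.16, 1.16 ± 0.21 and 1.00 ± 0.13 (limma adjusted p = 0.00412, 0.0311 and 0.00967). Mmp9, a matrix metalloproteinase made by neutrophils among other cells, rose in neocortex (0.78 ± 0.16, limma adjusted p = 0.0221). The neutrophil sums given above were higher with tumour in every region, and their part in Mmp9 was not tested.

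Averaged over regions, the calls were 14 higher and 0 lower of the 25 induced genes, 1 higher and 4 lower of the 15 of the receptor machinery and 2 higher of the 6 repressed genes, beside 7.66% higher and 5.45% lower of all genes. Leaving out 1 replicate moved the 14 to between 6 (without CON 15 or CON 16) and 20 (without LLC 4), and the 4 lower to between 1 (without CON 15 or CON 16) and 6 (without LLC 4). The shares of all genes in these fits, given above, moved as well. The 14 included Gpd1, a glycerol phosphate dehydrogenase gene, at 0.23 ± 0.036 (limma adjusted p = 0.00700). The machinery genes called lower were Stip1 (-0.21), Ptges3 (-0.19), Hsp90aa1 (-0.19) and Hspa8 (-0.18), the last a constitutive Hsp70 (limma adjusted p = 0.0117, 0.0214, 0.0169 and 0.0296). Abcb1a was the 1 called higher (0.25, limma adjusted p = 0.0142).

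The targets varied together across libraries to different degrees. The Pearson correlation over 24 libraries of each gene's log2 difference from the control mean with the mean of the other targets was 0.97 for Sgk1, 0.95 for Sult1a1, 0.94 for Map3k6, 0.93 for Plin4 and Arrdc2 and 0.91 for Fkbp5. It was 0.80 for Tsc22d3, 0.65 for Zbtb16, 0.54 for Pdk4 and -0.53 for Nr3c1. These are descriptions, since the 24 libraries share their group, region and possibly animal, and the contrast of LLC 1 to 3 with the rest carries much of them.

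Among 12607 other genes that passed the filter in all regions, the 8 most like the mean of the targets by this measure had correlations of 0.97 to 0.95. They were Adipor2, Notch4, Nfkbia, Mfsd2a, Slc2a1, Maff, Klf15 and Hif3a, of which Nfkbia, Mfsd2a, Klf15 and Hif3a are on the list of 25 induced genes. Slc2a1, the glucose transporter of the blood-brain barrier, had control and LLC means of 81.0 and 157 TPM in neocortex, with LLC 4 at 101. Maff, a small bZIP factor gene, had means of 1.17 and 5.38 TPM there, with LLC 4 at 1.78. Hif3a, an inhibitory hypoxia factor gene, had means of 2.33 and 8.30 TPM, with LLC 4 at 2.94. Since these genes were chosen for their likeness to the targets over the same libraries, a value of LLC 4 near the controls follows from the choice.

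The 5 genes most like Nr3c1 were Cep170, Tnks2, Fam160a2, Ltn1 and Rgs7bp, with correlations of 0.97 to 0.96 over the same libraries. All 5 were low in cerebellar LLC 1, as Nr3c1 was. Cep170, a centrosomal protein gene, had a mean of 58.9 TPM in control cerebellum and 26.5 TPM in that library. Rgs7bp, which anchors a regulator of G protein signalling, had 199 and 84.4 TPM. The likeness to Nr3c1 therefore includes that library, whose oligodendrocyte sum stood apart.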

How the data were processed

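The labels' protocols name Trizol extraction, the TruSeq stranded mRNA kit and an Illumina NovaSeq instrument for all 24 libraries. By the table's name and its values, the authors deposited TPM (transcript abundance per length, scaled to a fixed total per library) in 1 table. The submitters' processing notes name build mm10. The aligner, counter and annotation were not given in the sources used here. A TPM value depends on what else fills the library and keeps no depth.

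Each region was fitted with limma 3.58.1 (R 4.3.3; eBayes with trend) on log2(TPM + 1), two-sided, for genes averaging 1 TPM or more, with Benjamini-Hochberg adjustment over all genes and a threshold of 0.05. Region means were fitted with 1 value per title number, differences between regions in 1 fit of 24 libraries, and control regions in 1 fit of 12. Deviations of control libraries with the same title number correlated between 0.11 and 0.26 for cerebellum and neocortex (4 of 4 pairs over 0.1), so these were taken as paired by the data, not by a label; no other comparison had every pair over 0.1. Fits were tested on simulated data. The lists, named genes (at most 6 passing per list and comparison, by p) and tests were chosen with earlier results of these data known. Alternatives were a pseudocount of 0.1, filters at 5 TPM or none, median-ratio scaling, replicate blocks and leaving out each replicate. Counts for the 3 gene lists without single replicates were added after seeing the data. Gene positions are from GENCODE M21 and promoters from RefSeq GRCm38.p6. Figures were drawn with matplotlib 3.10.9.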

Additional observations from a re-analysis of the deposited data

Results flagged for a closer look

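Among 186 groups of 4 libraries examined (the 10 genes and the other genes named, in 6 groups each), 11 had a library whose gap to the nearest of the other 3 took up nearly the whole range. Chance alone flags about 1 in 20 groups.

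For Nr3c1, cerebellar LLC 1 measured 31.6 TPM, against 47.3 to 49.1 TPM in the other LLC libraries. For Fkbp5, hippocampal LLC 4 measured 33.5 TPM, against 45.2 to 47.3 TPM. In LLC 4, Cdkn1a was at 7.65 TPM in hippocampus (23.5 to 24.5 in the others), Gjb6 at 64.6 TPM in neocortex (99.5 to 103) and 89.4 TPM in cerebellum (141 to 147), and Mt1 at 854 TPM in cerebellum (1671 to 1803). Of the 11 values, 5 come from LLC 4.

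The other 5 were Lcn2 at 8.90 TPM in neocortex LLC 2 (5.59 to 6.14 in the others), Cdkn1a at 18.4 TPM in neocortex CON 14 (22.2 to 22.6), Cebpd at 17.7 TPM in hippocampus CON 16 (15.8 to 15.9), Ncoa1 at 61.9 TPM in neocortex CON 15 (58.8 to 59.2) and Nr3c2 at 23.8 TPM in neocortex CON 14 (21.5 to 21.6).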

How the results depend on the processing

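The counts of the 10 genes called against control moved with most choices. Without the filter on low values, which tested more genes, they were 1 in neocortex, 0 in cerebellum, 1 in hippocampus and 1 over the mean of regions. Of all genes, 2.51%, 0.316%, 0.968% and 4.46% were called in these fits. A filter at a mean of 5 TPM, which leaves Map3k6 out, gave 0 in cerebellum, beside 2.73% of all genes. Leaving out 1 replicate gave 0 to 9 in neocortex, 0 to 6 in cerebellum, 0 to 6 in hippocampus and 0 to 7 over the mean of regions, each time the most without LLC replicate 4, and 0 to 1 for the difference of the LLC effect between hippocampus and cerebellum. In the fits against control, the share of all genes called ranged from 1.29% to 26.5%, 0.041% to 10.7%, 0.389% to 11.4% and 2.55% to 29.1%. The cause was not tested. Over all alternatives, 1607 recomputed values of single genes kept their direction and side of the threshold, 37 changed sign, 242 fell short of the threshold after passing it and 41 came to pass it.

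Median-ratio scaling turned the sign in controls for Nr3c1 (-0.19), Sgk1 (-0.026) and Sult1a1 (-0.18) in cerebellum against neocortex, for Sgk1 (-0.015) in hippocampus against neocortex, and for Sgk1 (0.011), Sult1a1 (0.025), Pdk4 (0.17) and Arrdc2 (0.034) in hippocampus against cerebellum. By construction it removes the median shift between regions. For the difference of the LLC effect, cerebellum minus neocortex, it turned Pdk4 (0.024).

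Leaving out 1 replicate turned small values, none of them called. Against control, Nr3c2 ranged from -0.085 to 0.080 in cerebellum, -0.054 to 0.12 in hippocampus and -0.0021 to 0.085 over the mean of regions, and Hsd11b1 from -0.12 to 0.029 in hippocampus. For cerebellum minus neocortex, Arrdc2 ranged from -0.051 to 0.20, Pdk4 from -0.12 to 0.024 and Zbtb16 from -0.0044 to 0.37. For hippocampus minus neocortex, Sgk1 ranged from -0.23 to 0.021, Plin4 from -0.22 to 0.18, Arrdc2 from -0.22 to 0.052 and Nr3c1 from -0.014 to 0.060. For hippocampus minus cerebellum, Sgk1 ranged from -0.16 to 0.11, Pdk4 from -0.21 to 0.088, Arrdc2 from -0.29 to 0.10, Sult1a1 from -0.034 to 0.19 and Tsc22d3 from -0.041 to 0.11. In controls, hippocampus against cerebellum, Map3k6 ranged from -0.069 to 0.070 and Pdk4 from -0.066 to 0.018.

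The replicate numbers were taken as pairs for control cerebellum against neocortex only, though the blocked fit of controls applied them to the hippocampal libraries too. Numbers in the titles correlated between -0.096 and 0.63 across regions, with 18 of 24 libraries best with their own number, and numbers in the descriptions between -0.26 and 0.47, with 4 of 12. With the description number as a replicate block, 2, 3 and 1 of the 10 genes were called in neocortex, cerebellum and hippocampus and 4 over the mean of regions. This stood beside 4.43%, 4.95%, 1.22% and 13.8% of all genes. Nr3c1 was among the genes called in cerebellum and over the mean of regions, as lower. With the title number as a block, 8, 5 and 7 were called between control regions (cerebellum against neocortex, hippocampus against neocortex, hippocampus against cerebellum), beside 85.8%, 64.2% and 84.2% of all genes. Each difference of effects gave 0, beside 1.37%, 0% and 0.303% of all genes. Beyond the fit without it, the title block added Sgk1 (-0.21), Sult1a1 (-0.18) and Plin4 (-0.25) and lost Arrdc2 in hippocampus against cerebellum, and added Map3k6 (-0.26) in hippocampus against neocortex.

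TPM carries no read counts, so counting error is not known for low genes such as Map3k6 and Plin4, and depth was not modelled.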
